A study of Mus musculus with 12 samples.

Results

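A set of 9 homeobox genes of the anterior nervous system, Otx1, Otx2, Six3, Six6, Emx2, Lhx2, Lhx5, Dmbx1 and Hesx1, were described in ATAC-seq data from mouse embryonic stem cells that were differentiated towards spinal motor neurons. ATAC-seq uses a transposase that inserts into open DNA, so the stretches that collect many insertions are read as accessible. An accessible domain was assigned to a gene when it overlapped the promoter (1 kb on either side of a transcription start site, TSS), overlapped the gene body, or had a start site of that gene as the nearest protein-coding one. All 9 members were found among 21938 protein-coding genes.

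The 12 samples formed 6 groups of 2. Embryoid bodies (EBs, before patterning) and progenitors (2 days of 1 µM retinoic acid, RA, and 0.5 µM of the Hedgehog agonist SAG) came from the parental Ainv15(iCre) line. At day 4, after RA and SAG, the no Dox control was the uninduced Ainv15(iFlag.Hoxc6) line. iHoxc6, iHoxc9 and iHoxc10 neurons each carried 1 Flag-tagged Hox transgene at the HPRT locus, switched on with 3 µg/mL doxycycline (Dox) for 48 h. Day 4 cultures hold motor neurons together with interneurons, so fewer cells of a type and less accessibility per cell cannot be told apart. The authors deposited 1 list of domains per group, made from both samples. No value therefore has a replicate error, no difference could be set against the spread between replicates, and no test was possible. Values are descriptions of 6 lists, read against the same counts over all protein-coding genes. The no Dox list has another layout than the others, its name carries a p cut-off that theirs do not, and other settings may have been used to call it. No Dox and iHoxc6 share a cell line, as do EBs and progenitors. The iHoxc9 and iHoxc10 neurons, like the progenitors, come from other lines than no Dox, so in those comparisons group and cell line cannot be told apart.

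In the embryo, the anterior neural plate is divided by transcription factors of the homeobox class long before neurons form. Otx1 and Otx2 set the territory of forebrain and midbrain, Six3, Six6 and Hesx1 mark the most anterior plate with the eye field and the pituitary, Emx2 and Lhx2 pattern the cerebral cortex, and Dmbx1 marks the diencephalon and midbrain. Otx2 is also expressed in pluripotent epiblast, and Lhx5 also serves interneurons of the spinal cord. RA moves neural cells towards posterior identities, and Hox genes such as Hoxc6, Hoxc9 and Hoxc10 give positions along the brachial, thoracic and lumbar cord. These lie far behind the forebrain and midbrain domains of the members, though members such as Lhx5 also serve the cord.

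For each member the widest promoter domain and the widest other domain were picked, and the 6 widest of these that overlap no annotated untranslated region are shown by their central 300 bases, since the results below turn on them. Sequences are from GRCm38 (mm10), plus strand, and capitals mark TAAT or its complement ATTA, the core that most homeodomains bind. The Dmbx1 region at chr4:115962677-115962976 is intergenic and was widest in no Dox. The Otx1 region at chr11:22007613-22007912 lies in an intron of Ehbp1 and was widest in EBs. The Lhx2 region at chr2:38424562-38424861 belongs to a domain that overlaps an exon of Gm13589. The first Otx2 region, chr14:48654905-48655204, is intergenic beyond the 3′ end of the gene, and the second, chr14:48666184-48666483, overlaps an Otx2 exon beside an internal start site. Both were read in EBs. The Lhx5 region at chr5:120393942-120394241 is intergenic, upstream of the gene, and was widest in iHoxc10 neurons.
Dmbx1 upstream: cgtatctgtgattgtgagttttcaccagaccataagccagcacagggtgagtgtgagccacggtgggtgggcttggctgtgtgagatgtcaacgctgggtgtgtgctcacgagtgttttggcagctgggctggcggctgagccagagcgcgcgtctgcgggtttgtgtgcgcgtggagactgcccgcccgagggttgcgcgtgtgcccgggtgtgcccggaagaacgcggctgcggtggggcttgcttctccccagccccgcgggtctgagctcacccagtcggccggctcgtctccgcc
Otx1 upstream: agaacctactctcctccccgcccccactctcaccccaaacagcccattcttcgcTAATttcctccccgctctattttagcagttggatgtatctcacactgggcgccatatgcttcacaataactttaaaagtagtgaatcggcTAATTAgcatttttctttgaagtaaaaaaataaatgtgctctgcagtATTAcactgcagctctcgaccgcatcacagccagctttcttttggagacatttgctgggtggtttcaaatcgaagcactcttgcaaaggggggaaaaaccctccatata
Lhx2 distal: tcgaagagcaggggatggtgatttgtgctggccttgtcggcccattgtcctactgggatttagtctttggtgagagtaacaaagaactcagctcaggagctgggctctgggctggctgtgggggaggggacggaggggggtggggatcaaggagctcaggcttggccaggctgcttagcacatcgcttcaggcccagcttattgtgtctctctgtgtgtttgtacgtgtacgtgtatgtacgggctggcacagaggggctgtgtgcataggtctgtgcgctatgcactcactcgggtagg
Otx2 beyond 3′ end: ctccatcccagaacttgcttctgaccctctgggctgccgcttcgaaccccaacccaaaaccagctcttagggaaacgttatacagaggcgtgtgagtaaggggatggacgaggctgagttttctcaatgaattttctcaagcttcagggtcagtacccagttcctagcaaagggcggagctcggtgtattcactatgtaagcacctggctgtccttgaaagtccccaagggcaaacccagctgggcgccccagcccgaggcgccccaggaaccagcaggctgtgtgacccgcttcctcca
Otx2 internal start: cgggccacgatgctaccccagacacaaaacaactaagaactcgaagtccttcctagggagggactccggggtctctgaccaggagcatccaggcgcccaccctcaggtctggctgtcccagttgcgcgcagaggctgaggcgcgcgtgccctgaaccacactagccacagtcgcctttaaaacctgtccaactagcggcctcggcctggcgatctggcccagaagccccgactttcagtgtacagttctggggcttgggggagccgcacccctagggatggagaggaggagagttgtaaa
Lhx5 upstream: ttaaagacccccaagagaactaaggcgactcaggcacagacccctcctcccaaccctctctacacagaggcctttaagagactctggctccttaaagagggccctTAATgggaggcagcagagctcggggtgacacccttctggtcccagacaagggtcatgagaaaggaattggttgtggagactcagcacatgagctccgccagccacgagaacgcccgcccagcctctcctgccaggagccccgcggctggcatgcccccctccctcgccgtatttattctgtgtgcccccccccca
Of these 6 windows, the Otx1 window held 4 matches to TAAT on either strand, 2 of which overlap in the palindrome TAATTA, and the Lhx5 window held 1. The other windows held none. Among all central windows of 300 bases, TAAT was held by 42.3% in EBs, 53.9% in no Dox and 48.1% in iHoxc10, so its absence from a window is common and says nothing about any factor. The OTX-type motif TAATCC was in none of the 6 windows, against 5.4% of windows in EBs and 6.17% in no Dox. Over their full length, the same domains held more: TAAT 4 times and TAATCC 2 times in the Dmbx1 domain of 1243 bp, TAAT 6 times and TAATCC 1 time in the Otx1 domain of 1119 bp, and TAAT 2, 2 and 3 times in the Lhx2 domain and both Otx2 domains.

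The summed cover of the members was lower in the induced lists than in the uninduced ones, most of all in iHoxc9 and iHoxc10. Summed over the 9 genes, domains covered 23050 bp in EBs, 18424 bp in progenitors, 17268 bp in no Dox, and 12607, 5274 and 7580 bp in the iHoxc6, iHoxc9 and iHoxc10 lists. Relative to no Dox iHoxc6 stood at 0.73, iHoxc9 at 0.305 and iHoxc10 at 0.439. The whole lists were shorter too, with 0.833, 0.597 and 0.676 of the covered length of no Dox. The whole EB and progenitor lists stood at 0.775 and 0.864 of it. The cover of the members per Mb of list was 999.8 bp in EBs, 716 bp in progenitors, 581 bp in no Dox, 509 bp in iHoxc6, 297 bp in iHoxc9 and 377 bp in iHoxc10. The number of domains at the members was 106, 90, 86, 82, 37 and 40 in the same order of lists. Many were short: 39, 34, 28, 34, 14 and 12 of them were under 50 bp. The members have long surroundings, with a median locus of 175 kb against 52.1 kb for all genes, and a median of 1861 bp covered in no Dox against 1082 bp.

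**Figure D1:**
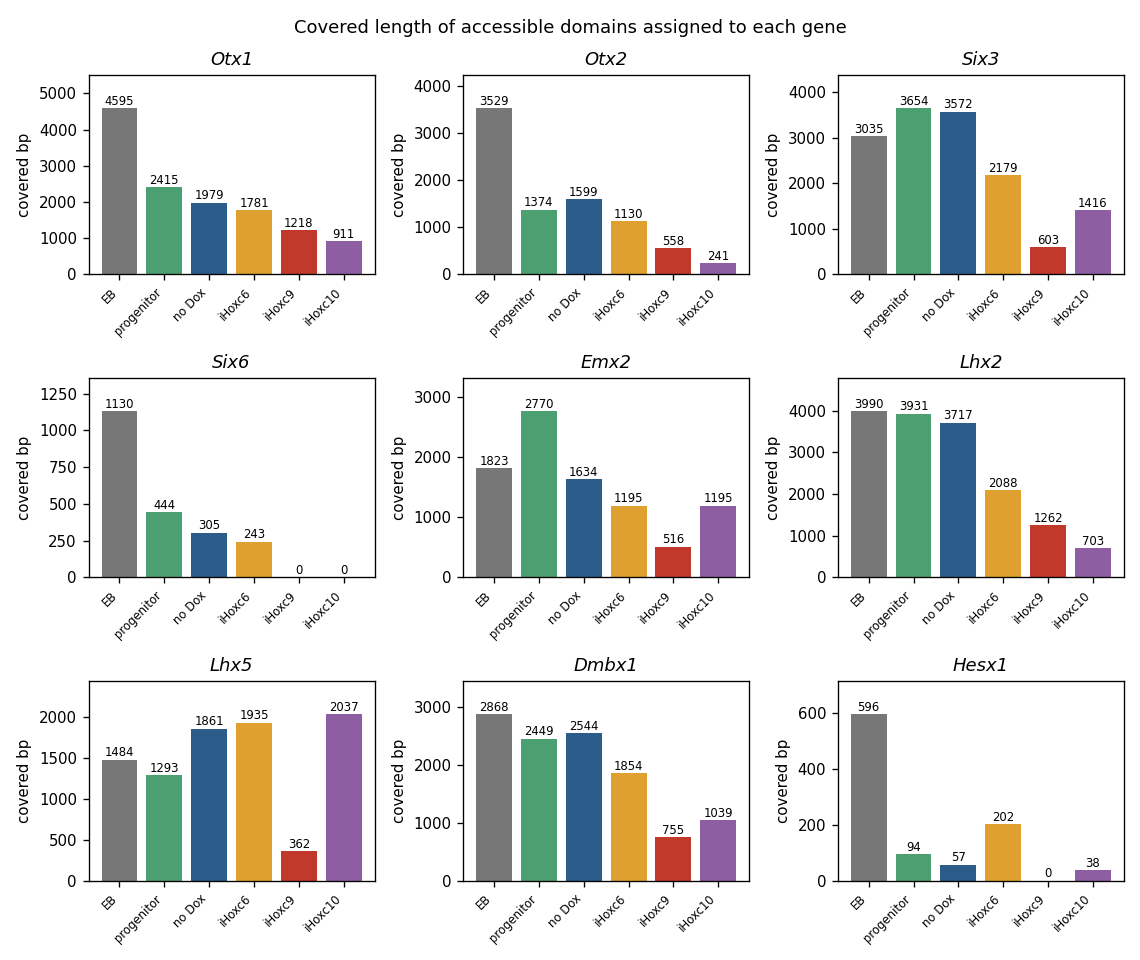
Bars give the summed length in bp of the accessible domains assigned to each of the 9 genes (vertical axes, a separate scale for each gene) in the 6 lists (horizontal axes), with no error bars because each list pools 2 samples. iHoxc9 (red) is at or near the lowest bar for each gene, iHoxc10 (purple) is lower still for Otx1, Otx2 and Lhx2, and Lhx5 is high in iHoxc10 at 2037 bp.

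At the promoters, every member had a domain in EBs, in no Dox and in iHoxc6 neurons. Of all protein-coding genes, 69.1% had one in EBs, 65.4% in no Dox and 65.7% in iHoxc6. In progenitors 8 of 9 members had one, against 66.5% of genes. Members with a promoter domain were 4 of 9 in iHoxc9 neurons, where the share of all genes was 62.9%, and 6 of 9 in iHoxc10 neurons, against 62.5%. Several members have many start sites and so wide promoter windows. With the 5′ end of the gene record as the only start site, 9, 7, 6, 7, 4 and 5 of 9 members had a promoter domain in EBs, progenitors, no Dox, iHoxc6, iHoxc9 and iHoxc10, against 65.6%, 63%, 62.1%, 62.3%, 59.3% and 59% of all genes. By that count no Dox, at 6 of 9, was near the share of all genes. With only 9 members, 4 of 9 in iHoxc9 is also not far from the shares of 59.3% and 62.9%.

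The genes whose promoter domain was in no Dox and absent from iHoxc9 were Otx2, Six3, Six6, Lhx5 and Hesx1, 5 of 9, against 5.68% of all genes with a promoter domain in no Dox. For iHoxc10 they were Otx2, Six3 and Six6, 3 of 9 against 5.9%. For iHoxc6 there were 0 of 9 against 3.03%. Otx2 alone had a promoter domain in EBs and none in progenitors, 1 of 9 against 6.37%. Narrow promoters are lost more often: 6 members had 1 to 400 bp of promoter covered in no Dox, and of all genes with that little cover 22.5% had no promoter domain in iHoxc6, 38.6% none in iHoxc9 and 41.9% none in iHoxc10. All the members lost in iHoxc9 and iHoxc10 belonged to these 6, so their counts of 5 of 6 and 3 of 6 are read against those shares, from which 3 of 6 differs little. At the 5′ end alone, Otx2 and Six3 had no domain in no Dox either. The 6 members that had one were without it in 0 cases in iHoxc6 (3.39% of all genes), 3 in iHoxc9 (6.34%: Six6, Lhx5 and Hesx1) and 2 in iHoxc10 (6.32%: Six6 and Lhx2). At the 5′ end no share was counted for genes with little cover, so these losses are not read as an excess.

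**Figure D2:**
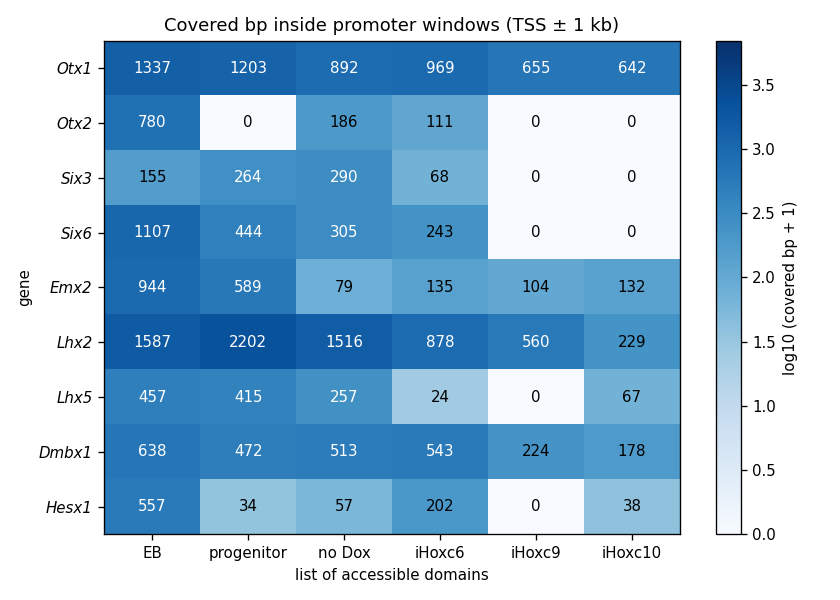
Each cell gives the bp covered by accessible domains inside the promoter windows of a gene (rows) in a list (columns), and its shade gives log10 of that length plus 1. Otx2, Six3 and Six6 read 0 in both iHoxc9 and iHoxc10, Lhx5 and Hesx1 read 0 in iHoxc9 only, and Otx1 stays between 642 and 1337 bp throughout.

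Between EBs and progenitors, 3 of 9 members (Otx2, Six6 and Hesx1) had covered length at least 2-fold lower in progenitors and 0 had it at least 2-fold higher. The same was true of 14.4% (lower) and 11.5% (higher) of all genes with a domain in either list. From progenitors to no Dox, 0 members were lower and 0 higher by that fold, where all genes gave 9.05% and 9.32%. From EBs to no Dox, 4 of 9 were lower (Otx1, Otx2, Six6 and Hesx1) and 0 higher, against 15.5% and 17%.

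Lower calls were spread over most members in iHoxc9 and iHoxc10 neurons, but not in iHoxc6 neurons. In iHoxc9 neurons, 8 of 9 were at least 2-fold below no Dox, all but Otx1, against 34.7% of all genes, and 0 were higher against 3.1%. In iHoxc10 neurons 6 of 9 were lower (Otx1, Otx2, Six3, Six6, Lhx2 and Dmbx1) against 24%, and 0 were higher against 2.55%. In iHoxc6 neurons 0 were lower against 9.48%, and 1 was higher, Hesx1, against 6.31%. Genes with little cover passed this fold more often, so genes with a mean of at least 1000 bp over the 6 lists were counted apart. Among these, 6 of 7 members were lower in iHoxc9 against 27.4%, 5 of 7 in iHoxc10 against 13.1%, and 0 of 7 in iHoxc6 against 2.23%. The comparisons with no Dox share that list.

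The median log2 ratio to no Dox, with 100 bp added to each length, was −1.49 for the members and −0.63 for all genes in iHoxc9, −1.21 and −0.48 in iHoxc10, and −0.42 and −0.24 in iHoxc6. When each length was divided by the covered length of its whole list, the members at least 2-fold below no Dox were 5 of 9 for iHoxc9 (14.3% of genes), 3 of 9 for iHoxc10 (12.9%) and 0 of 9 for iHoxc6 (6.92%). With progenitors in place of no Dox as reference, they were 8 of 9 in iHoxc9 (29.5%), 8 of 9 in iHoxc10 (22%) and 1 of 9 in iHoxc6 (10.6%). Set directly against iHoxc9, iHoxc10 was at least 2-fold higher at 4 of the 8 members with a domain in either (Six3, Emx2, Lhx5 and Hesx1), against 12% of genes, and lower at 1 of 8 (Otx2), against 8.29%.

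**Figure D3:**
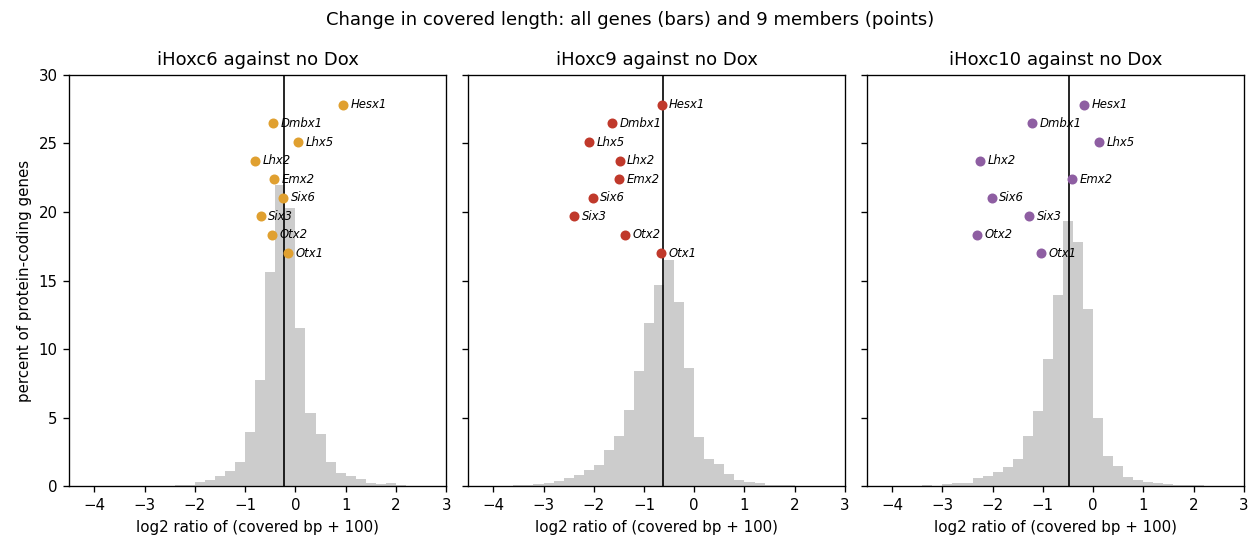
Grey bars give the percent of protein-coding genes (vertical axis) at each log2 ratio of covered length plus 100 bp to no Dox (horizontal axis), with the median as a black line, for iHoxc6, iHoxc9 and iHoxc10. Coloured points place the 9 members on the same horizontal axis, and their height only separates the names. In iHoxc9 no member lies to the right of −0.65, and in iHoxc10 Lhx5 alone lies above 0.

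Otx1 and Otx2, the paired-type factors that define forebrain and midbrain, both had their highest cover in EBs. Otx1 covered 4595, 2415, 1979, 1781, 1218 and 911 bp in EBs, progenitors, no Dox, iHoxc6, iHoxc9 and iHoxc10. These values fall in the order printed, although the induced lists are parallel day 4 groups and not steps of a course. The Otx1 promoter was held in all 6 lists. The region around the Otx1 start sites (chr11:22000983-22002301) held 1293, 1063, 892, 969, 655 and 642 bp. The difference at Otx1 was larger outside the promoter: the Ehbp1 intron region held 1119 bp in EBs, 467 bp in no Dox and 143 to 216 bp in the induced lists. A region over an Otx1 exon, 5.94 kb downstream of the 5′ end, held 717 bp in EBs, 297 bp in no Dox and none in iHoxc10.

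Otx2 covered 3529, 1374, 1599, 1130, 558 and 241 bp in the same order. Its EB value stood far above the rest, and 4 regions of at least 300 bp at Otx2 were held by EBs alone. Of these, 3 lay beyond the 3′ end, 18.8, 19.8 and 22.1 kb from the 5′ end, with 934, 320 and 682 bp. Another, of 300 bp, lay 27.2 kb upstream in an intron of Otx2os1. Inside the gene, 7.49 kb from the 5′ end, a domain of 721 bp in EBs met only 68 bp in iHoxc6 and none in the other lists. Its centre lay 0.81 kb upstream of an internal Otx2 start site. Regions centred 0.05 and 0.06 kb from internal start sites held 145 and 41 bp in no Dox, 43 and 0 bp in iHoxc6, and none in EBs. A region 36.2 kb upstream, in an Otx2os1 intron, held 0 bp in EBs, 444 bp in progenitors, 362 bp in no Dox, 310 bp in iHoxc6, 142 bp in iHoxc9 and 113 bp in iHoxc10. EBs were not without cover there: a separate region beside it, 35.7 kb upstream, held 166, 66, 34, 31, 43 and 36 bp. The region 80.5 kb upstream was also in all 6 lists, with 183, 184, 96, 216, 145 and 44 bp. The wide EB regions of Otx2 were thus absent from the progenitor and no Dox lists already, and the no Dox cover lay outside them.

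**Figure D4:**
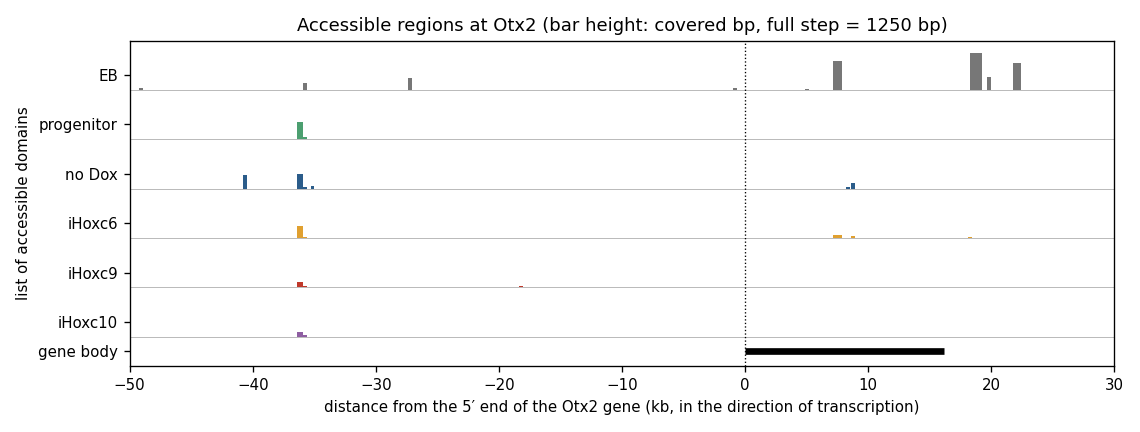
Position along Otx2 in kb from the 5′ end (horizontal axis, negative upstream, black bar for the gene body) is plotted for the 6 lists (rows), with bar height for the bp each list covers in a region and narrow regions drawn wider than scale. Only the stretch from 50 kb upstream to 30 kb downstream is drawn. The EB row carries the 934, 682 and 721 bp regions near and beyond the gene, and the other rows carry the region 36.2 kb upstream. Beside that region, EBs have 166 bp at 35.7 kb upstream.

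Six3, Six6 and Hesx1 are the factors of the anterior plate, eye field and pituitary. Six3 covered 3035, 3654, 3572, 2179, 603 and 1416 bp. The progenitor and no Dox values were not below that of EBs, and iHoxc9 held the least. Its 24, 25, 18 and 18 domains in EBs, progenitors, no Dox and iHoxc6 compare with 3 in iHoxc9 and 8 in iHoxc10. The 1 Six3 region present in all 6 lists lay 32.5 kb downstream of the 5′ end, and held 823, 272, 642, 417, 413 and 160 bp. The intragenic promoter region, 8.09 kb into the gene, held 56, 228, 290, 29, 0 and 0 bp. Upstream, the region 127 kb away held 103, 687, 71, 145, 0 and 0 bp.

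Six6, the eye-field relative of Six3, covered 1130, 444, 305, 243, 0 and 0 bp, nearly all of it in 1 promoter region, which it shares with the overlapping gene 4930447C04Rik. The 2 lists without a domain were iHoxc9 and iHoxc10. A missing domain means that none was called, and read depth is unknown, so a signal under the calling threshold would also read as 0. Hesx1, a repressor of the anterior plate and pituitary, covered 596, 94, 57, 202, 0 and 38 bp. Apart from EBs, these are short domains, and folds between them rest on few bases.

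Emx2 and Lhx2 pattern the cortex, and Lhx2 also the eye field. Emx2 covered 1823, 2770, 1634, 1195, 516 and 1195 bp, highest in progenitors and lowest in iHoxc9, with equal values in iHoxc6 and iHoxc10. Its promoter was held in every list, but with 944 bp in EBs and 589 bp in progenitors against 79 to 135 bp in the day 4 lists. Of 26 Emx2 regions, 5 were seen in progenitors alone, as were 12.0% of all regions, and the widest had 481 bp, 173 kb downstream. The Emx2 region 130.0 kb downstream was in all 6 lists with 236, 571, 488, 384, 186 and 465 bp.

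Lhx2 covered 3990, 3931, 3717, 2088, 1262 and 703 bp. The first 3 values are close to each other, and the induced values are all lower. At the intragenic promoter, 12.1 kb into the gene, the region held 898, 1660, 1344, 637, 263 and 229 bp. The distal region whose centre is printed above, 85.4 kb downstream, held 695, 845, 960, 781, 574 and 241 bp. The 2 places differ in iHoxc9, where the promoter region kept 263 of 1344 bp and the distal one 574 of 960 bp.

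Lhx5, a LIM factor of the forebrain and of spinal interneurons, was unlike the others. It covered 1484, 1293, 1861, 1935, 362 and 2037 bp, so iHoxc10 held the most and iHoxc9 the least. The promoter did not follow the total: its covered length was 457, 415, 257, 24, 0 and 67 bp. The iHoxc10 total came from upstream. The region 37.6 kb upstream held 0, 23, 303, 353, 263 and 824 bp, and the region 127 kb upstream held nothing in EBs and progenitors, 335 bp in no Dox, 340 bp in iHoxc6, 0 bp in iHoxc9 and 589 bp in iHoxc10.

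**Figure D5:**
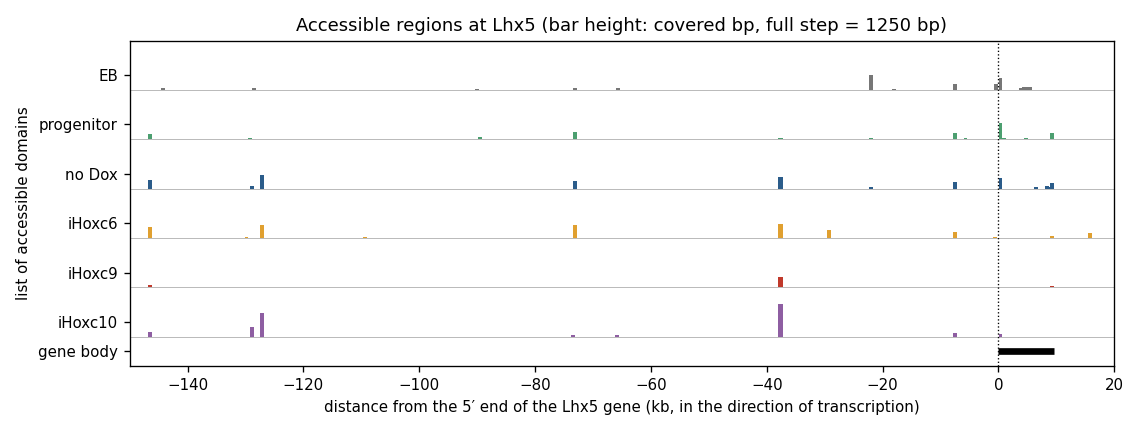
Position along Lhx5 in kb from the 5′ end (horizontal axis, negative upstream, black bar for the gene body) is plotted for the 6 lists (rows), with bar height for the bp each list covers in a region and narrow regions drawn wider than scale. The iHoxc10 row carries 824 bp at 37.6 kb and 589 bp at 127 kb upstream, while its bar at the promoter is small.

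Dmbx1, of the diencephalon and midbrain, covered 2868, 2449, 2544, 1854, 755 and 1039 bp, with iHoxc9 lowest and the 3 uninduced lists close to each other. Its promoter region was in all lists with 638, 472, 513, 543, 224 and 178 bp. The region printed above, 23.0 kb upstream, held 431, 731, 1243, 770, 263 and 548 bp, and so was widest in no Dox. Regions of 346 and 302 bp were seen in EBs alone.

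When overlapping domains of the 6 lists were merged, the 9 members had 221 regions, of which 28 touched a promoter, 35 an exon, 71 an intron and 87 were intergenic. All 6 lists held 12 of the 221, 5.43% against 11.2% of all regions. EBs alone held 54, 24.4% against 21.1%, progenitors alone held 32, 14.5% against 12.0%, and induced lists only held 36, 16.3% against 21.3%. A further 4 regions were limited to uninduced lists that included no Dox and at least 1 other, 1.81% against 2.36%. Of the 83 regions held by no Dox, EBs also had 36 (43.4%, against 41.6% of all no Dox regions), progenitors 42 (50.6% against 56.0%), iHoxc6 44 (53.0% against 60.8%), iHoxc9 24 (28.9% against 47.7%) and iHoxc10 30 (36.1% against 48.2%). Among the 43 regions with at least 300 bp in some list, 10 were in all 6 lists, 23.3% against 43.3% of all such regions, and 0 were in induced lists only, where 3.21% of all such regions were. EBs alone held 6 of the 43, 14.0% against 7.79%, and progenitors alone held 2, 4.65% against 1.70%.

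As sequence, the member promoters (250 bases before to 50 after the 5′ end of each gene) were rich in G and C, with a median of 60.3% against 55.0% for all genes, and a median CpG observed over expected of 0.639 against 0.524. TAAT on either strand was in 4 of 9 (Otx1, Six3, Lhx5 and Hesx1), against 55.5% of all promoters. ATAAA, the core that posterior Hox proteins prefer, was in 2 of 9 (Otx1 and Hesx1), against 37.6%. None of the 9 held TAATCC, which was in 7.49% of all promoters, or the LIM and paired homeodomain motif TAATTA, in 5.3%. Neither the octamer ATGCAAAT (1.57% of all promoters) nor the RA receptor core motif AGGTCA (14.8%) was found.

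Stage markers were read as a check on the labels. Pou5f1, the pluripotency factor also called Oct4, covered 1533 bp in EBs, 77 bp in no Dox and 0 bp in the other lists. Nanog (2864, 760 and 529 bp in EBs, progenitors and no Dox) and Zfp42 (2015, 901 and 533 bp) were also highest in EBs, but Esrrb was close in EBs and no Dox (2677 and 2430 bp) and Klf4 was higher in no Dox (4306 and 5892 bp). The motor neuron list (Olig2, Nkx6-1, Isl1, Lhx3, Mnx1, Slc18a3 and Chat) had a promoter domain at 7 of 7 genes in every list but iHoxc9, which had 6, so promoter presence did not mark the lineage. Its summed cover was 0.379 of the no Dox value in EBs, 0.627 in progenitors, and 0.789, 0.446 and 0.732 after induction of Hoxc6, Hoxc9 and Hoxc10. The iHoxc9 list was thus low also at motor neuron genes, where 5 of 7 were at least 2-fold below no Dox against 34.7% of all genes, and its part in the members' values was not tested. In iHoxc10 1 of these 7 was lower, against 24%.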

How the data were processed

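ATAC-seq was measured in 12 samples of 6 groups. Per the methods of the study and the submitters' processing notes, the authors mapped paired-end reads to mm10 with Bowtie2 2.2.2, used Picard 2.8.2, and called accessible domains with DomainFinder of SeqCode, whose threshold is not given in the sources used here. Each deposited list gives where a domain starts and ends, in bp, with no score, count or p-value per domain, and 1 list was made from both samples of a group. The no Dox list has 3 further columns that are constant and were not used, and its name gives a day other than the one in its label (the label was followed) and a p cut-off that the other names lack. Read depth is unknown, so no interval or detection limit is given.

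Starts were read as BED starts and are printed counting from 1. No source gives their base, which makes positions uncertain by 1 bp. Genes and TSS were taken from GENCODE M21 (GRCm38.p6), with a TSS for each protein-coding transcript, and sequences from the GRCm38 genome. Domains of the autosomes and sex chromosomes were assigned to every protein-coding gene by the same rule. A domain can count for more than 1 gene. Covered length is the summed length of assigned domains, and promoter cover is the part of it inside the windows. A gene was called lower or higher at a 2-fold difference, among genes with a domain in either list, and a gene that went to 0 was called lower. Log2 ratios had 100 bp added to each length. Regions are domains of the 6 lists merged where they overlapped by at least 1 bp. Distances run from the 5′ end of the gene record to the middle of a region.

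Named regions were the widest promoter and other domain of each member and regions of at least 300 bp held by a single stage or state, and the other regions given were chosen after their values were seen. The members and gene lists were chosen with earlier results of these data known. Alternatives to width, window, assignment, overlap, scaling and fold were run. Some genes of the forebrain and hindbrain lists are not reported here, and values of these lists are over the other genes. The assignment code was tested on simulated genomes. Python 3.11.15, NumPy 2.4.6 and Matplotlib 3.10.9 were used.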

Additional observations from a re-analysis of the deposited data

Results flagged for a closer look

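Lhx5 moved apart in iHoxc9 and iHoxc10 relative to the same no Dox list. Its covered length was 362 bp in iHoxc9, 2037 bp in iHoxc10 and 1861 bp in no Dox, so the log2 ratio was −2.09 in the first and 0.12 in the second, a difference of 2.21. It was picked out because the lists lay on opposite sides of no Dox. Hesx1 did the same between iHoxc6 (202 bp, log2 ratio 0.94) and iHoxc9 (0 bp, −0.65), with 57 bp in no Dox and a difference of 1.59. Neither difference was tested, because each group has 1 list. The rule was applied to the members only, and no share of all genes was counted. It is not particular to the members. Among the midbrain and isthmus genes, iHoxc9 and iHoxc10 also lay on opposite sides of no Dox at Pax2 (795 and 5660 bp against 4217 bp). The same held at Lmx1b (2138 and 5356 bp against 5003 bp) and Wnt1 (771 and 1094 bp against 869 bp), and not at the other genes of that list. The Hesx1 lengths are those of single short domains.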

How the results depend on the processing

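Of 304 alternative values, 227 stayed within 1.5 times the reported one and 77 moved further. Counts of members and domains have no direction, so a reversal was not defined for them. The covered length of progenitors relative to no Dox was 1.07 as reported. It was 0.970 with domains of at least 500 bp and 0.995 within 50 kb of the gene body. The ratios of the other lists stayed on the same side of no Dox. The lists pool both samples of a group, and leaving out a sample was not possible. No paired analysis was possible because each list joins both replicates and no result comes from a test. Lists hold no depth, which limits every absence of a domain. In the values below, lists follow the order EB, progenitor, no Dox, iHoxc6, iHoxc9, iHoxc10 where several are given.

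Members with a promoter domain, with domains of at least 500 bp only, were 2 in progenitors, 3 each in no Dox and iHoxc6, and 1 each in iHoxc9 and iHoxc10, and with at least 150 bp 5 in iHoxc6 and 3 in iHoxc10. Domains assigned were 67, 56, 48 (iHoxc6) and 23 (iHoxc9) with at least 50 bp, 41, 41, 35, 27, 12 and 19 with at least 150 bp, and 15, 7, 7, 5, 2 and 4 with at least 500 bp. They were 53, 55, 51 and 48 in the first 4 lists cut to equal length, and 42, 33, 27, 23, 15 and 8 with promoters and gene bodies only. The covered length of iHoxc9 relative to no Dox was 0.196 with domains of at least 500 bp and 0.511 per Mb of list, and that of iHoxc10 was 0.237 with promoters and gene bodies only.

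For the member counts that follow, shares of all genes were counted only for the induced lists, per Mb of list against no Dox and against progenitors. Those shares are given above. The other counts show how far the member values moved and cannot be read against all genes. Members 2-fold lower in progenitors than in EBs were 1 within 50 kb and at 4-fold, and higher 1 by nearest TSS and at 1.5-fold. From progenitors to no Dox, lower were 1 with at least 150 bp, with at least 500 bp, with equal lists and with gene bodies, and 2 at 1.5-fold, and higher 1 with at least 500 bp and with gene bodies. From EBs to no Dox, lower were 2 within 50 kb and 1 at 4-fold, and higher 1 with at least 500 bp and by nearest TSS. In iHoxc6, lower than no Dox were 1 with at least 150 bp and by nearest TSS, 2 with at least 500 bp, within 50 kb and at 1.5-fold, and 3 with gene bodies, and higher 0 with at least 500 bp, within 50 kb and at 4-fold. Against progenitors, a reference chosen after seeing the data, as were the backgrounds of genes with at least 1000 bp and of promoters with 1 to 400 bp, 1 was lower in iHoxc6. In iHoxc9, lower were 3 with at least 500 bp, 5 per Mb of list and 4 at 4-fold. In iHoxc10, lower were 3 under each of these, and higher 1 with at least 500 bp and with equal lists. In iHoxc10 against iHoxc9, lower were 2 with at least 150 bp, per Mb of list and at 1.5-fold, and 0 within 50 kb and at 4-fold, and higher 2 with at least 500 bp, with gene bodies and at 4-fold. The cause of these moves was not tested. Each width limit leaves fewer domains.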

Other observations

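Genes of the midbrain and isthmus were read in the same way, and their summed cover was not highest in EBs. The whole EB and progenitor lists stood at 0.775 and 0.864 of the no Dox length, and these genes were near those values. The 10 genes (En1, En2, Pax2, Pax5, Lmx1a, Lmx1b, Wnt1, Fgf8, Pou3f3 and Tal2) stood at 0.703 of the no Dox length in EBs and 0.874 in progenitors, where the 9 members stood at 1.33 and 1.07. In iHoxc6 they stood at 0.811, with 1 of 10 at least 2-fold below no Dox, against 9.48% of all genes. In iHoxc9 they stood at 0.441, with 8 of 10 lower against 34.7%, and in iHoxc10 at 0.799, with 3 of 10 lower against 24%. Promoter domains were held by 9 of 10 in each of these induced lists, against 65.7%, 62.9% and 62.5% of all genes. In iHoxc10, En1 covered 2547 bp against 4409 bp in no Dox, and Pou3f3 13633 bp against 16804 bp, while Pax2 covered 5660 bp against 4217 bp.

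The forebrain and eye genes Emx1, Fezf1, Fezf2, Rax, Vax1, Nkx2-1, Pax6, Sp8 and Barhl2 stood at 0.763 of no Dox in EBs, 0.85 in progenitors, 0.773 in iHoxc6, 0.453 in iHoxc9 and 0.518 in iHoxc10. In iHoxc9 and in iHoxc10 4 of 9 were at least 2-fold below no Dox. They had promoter domains at 9 of 9 genes in iHoxc9 and 8 of 9 in iHoxc10. The members had them at 4 and 6 of 9 and all genes at 62.9% and 62.5%, from which 6 of 9 differs little. The hindbrain genes Gbx2, Egr2, Hoxb1 and Irx3 stood at 0.312 in iHoxc9, with 3 of 4 lower, close to the 0.305 of the members, and at 0.843 in iHoxc10, with 1 of 4 lower. The shares of all genes lower by that fold were 34.7% in iHoxc9 and 24% in iHoxc10. The whole EB and progenitor lists stood at 0.775 and 0.864 of no Dox, close to the forebrain and eye values.

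Of the other marker lists, the 5 pluripotency genes stood at 1.42 of no Dox in EBs and 0.901 in progenitors, the 3 interneuron genes at 0.572 and 0.695, the 2 pan-neuronal genes at 0.364 and 0.493, and the 4 mesoderm and endoderm genes at 1.18 and 0.905. In iHoxc9 and iHoxc10 these were 0.648 and 0.532 (pluripotency), 0.856 and 0.584 (interneuron), 0.477 and 0.672 (pan-neuronal), and 0.571 and 0.46 (mesoderm and endoderm). The whole lists stood at 0.775 of no Dox in EBs, 0.864 in progenitors, 0.597 in iHoxc9 and 0.676 in iHoxc10.

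The genes whose covered length was most like that of Otx2 over the 6 lists, by Euclidean distance of log2 length with 100 bp added, were B3gnt7 (distance 0.956), Ehd2 (0.959) and Gm21833 (0.977). B3gnt7 covered 2402 bp in EBs, 1222 bp in progenitors and 226 bp in iHoxc10.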
